A study of Homo sapiens with 3 samples.

Results

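ZBTB48, the gene encoding the zinc finger protein HKR3, and 4 genes reported elsewhere as its targets, MTFP1, SNX15, VWA5B2 and PXMP2, were followed through RNA sequencing of Hep3B, a human liver cancer cell line. Their identifiers in the table are ENSG00000204859.12_2 (ZBTB48), ENSG00000242114.5_2 (MTFP1), ENSG00000110025.12_2 (SNX15), ENSG00000145198.14_1 (VWA5B2) and ENSG00000176894.9_2 (PXMP2). They were taken by name, as 5 of 19862 genes in the expression table, by a rule that uses no measured value, although with earlier results of these data known. The study compared 3 groups of 1 library each. Control cells are labelled with the transfection reagent (Fugene) only, under the title NT-Empty. The other groups are cells transfected with pcDNA3.1-HKR3, an expression plasmid, and cells transfected with siTERT, an interfering RNA against the telomerase gene TERT. All were kept at 21% oxygen for 6 h before the medium was replaced. Whether control cells received an empty plasmid, and when RNA was taken, the sources used here do not give. TERT was at 4.69 FPKM in control cells, 4.25 FPKM after HKR3 transfection and 5.37 FPKM in the siTERT-labelled library, so that label was not borne out by a lower TERT level, and the label is used below only as a name. FPKM counts fragments scaled to transcript length and sequencing depth, which allows levels to be compared between genes. With 1 library per group, the spread between replicates is unknown and no difference was tested.

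ZBTB48 carries a BTB domain and a row of C2H2 zinc fingers, and binds the TTAGGG repeats of telomeres directly. It also acts as a transcription factor at a limited set of promoters. MTFP1 is a protein of the inner mitochondrial membrane that promotes mitochondrial fission. SNX15 is a sorting nexin of endosomal membrane traffic. PXMP2 forms a channel in the peroxisomal membrane, and VWA5B2 holds a von Willebrand factor A domain.

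The sequences upstream of MTFP1, SNX15 and PXMP2 are shown because these are the reported targets with a measurable transcript. Each is the 250 bases before the RefSeq start (GRCh38.p14, plus strand), at chr22:30425518-30425767 for MTFP1, chr11:65027189-65027438 for SNX15 and chr12:132687337-132687586 for PXMP2. Capitals mark the telomeric repeat unit TTAGGG or its variants TCAGGG and TGAGGG, searched on both strands.
MTFP1: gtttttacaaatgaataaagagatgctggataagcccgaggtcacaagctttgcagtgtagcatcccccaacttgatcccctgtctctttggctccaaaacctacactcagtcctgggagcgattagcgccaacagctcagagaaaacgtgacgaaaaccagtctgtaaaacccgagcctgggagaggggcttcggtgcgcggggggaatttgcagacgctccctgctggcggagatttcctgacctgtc
SNX15: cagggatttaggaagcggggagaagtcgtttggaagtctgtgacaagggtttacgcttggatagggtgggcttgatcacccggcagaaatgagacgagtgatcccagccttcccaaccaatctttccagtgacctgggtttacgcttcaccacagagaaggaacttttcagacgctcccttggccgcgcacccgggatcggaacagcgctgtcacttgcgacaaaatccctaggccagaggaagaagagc
PXMP2: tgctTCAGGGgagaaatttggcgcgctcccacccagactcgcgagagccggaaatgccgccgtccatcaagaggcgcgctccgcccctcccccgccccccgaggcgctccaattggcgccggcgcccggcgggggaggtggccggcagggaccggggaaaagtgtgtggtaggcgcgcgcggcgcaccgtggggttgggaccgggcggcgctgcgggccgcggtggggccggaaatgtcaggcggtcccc
The only match was TCAGGG at position -246 of PXMP2, counted from -1 at the base before the start. TTAGGG was found in 0 of the windows of the 5 genes (VWA5B2 has 2), against 7.94% of 35116 RefSeq promoters of the same length. TCAGGG was present in 18.0% and TGAGGG in 18.3% of these promoters. The windows of MTFP1 and SNX15 were 53.2% and 54.8% G or C, while that of PXMP2 was 74.8% and those of VWA5B2 were 79.2% and 74.4%. A match describes the letters of this window only.

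ZBTB48 itself was at 4.91 FPKM in control cells, 2842 FPKM after HKR3 transfection and 4.89 FPKM in the siTERT-labelled library. The HKR3 library stood alone, and the other libraries were level. The ratio of the HKR3 library to the control was 578, with a 95% counting interval from 482 to 701. This interval and those below are exact binomial intervals on fragments estimated from FPKM and the longest coding transcript, and cover counting error only. ZBTB48 ranked 8209 of all genes by FPKM in the control and 10 in the HKR3 library. The library labelled siTERT had 0.996 times the control level, with an interval from 0.767 to 1.29. Of 31-base words in the ZBTB48 transcripts, 0 of 4713 occurred in another gene, so its reads were not shared with a copy. Plasmid transcripts and those of the cells' own gene were not separated. The neighbouring gene KLHL21, an adaptor of a ubiquitin ligase, was at 15.6, 18.8 and 16.8 FPKM in the control, HKR3 and siTERT-labelled libraries. TAS1R1, the neighbour on the other side, was below 0.1 FPKM in each.

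Against this large difference in ZBTB48, 0 of the 3 measured targets differed by 2-fold from the control in the HKR3 library. PXMP2 and MTFP1 were lower and SNX15 was higher, and VWA5B2 was at the limit of detection. Measured here means a mean of at least 1 FPKM over the libraries, which 10974 genes reached, and differences are in log2(FPKM + 1), which understates changes of weakly expressed genes. At least 2-fold differences in either direction were seen in 8.05% of these genes, with 5.52% higher and 2.52% lower. Of the 4 measured genes among the 5, only ZBTB48 was past 2-fold. In the library labelled siTERT 0 of the 4 were, against 0.483% of all measured genes. The 2 comparisons share the control library.

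**Figure D1:**
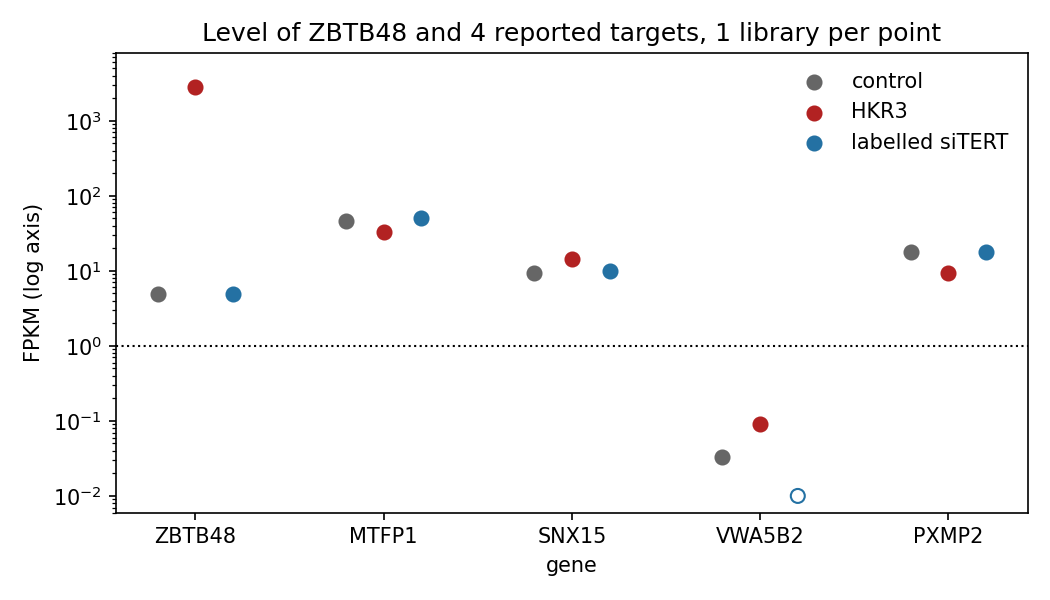
FPKM (log axis) of ZBTB48 and its reported targets in the control, HKR3 and siTERT-labelled libraries, with 1 point per library. The open circle is VWA5B2 listed at 0, drawn at the foot of the axis, and the dotted line is 1 FPKM. Only ZBTB48 is far apart in the HKR3 library, at 2842 FPKM against 4.91 FPKM in the control.

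PXMP2 was at 17.9 FPKM in control cells, 9.23 FPKM after HKR3 transfection and 18.0 FPKM in the siTERT-labelled library. The HKR3 library was the lowest, and the other 2 could not be told apart, with a ratio of 1.01 and a counting interval from 0.817 to 1.24. The HKR3 library had 0.516 times the control level, with an interval from 0.400 to 0.666. Its log2 difference of -0.88 lay at percentile 3.98 of all measured genes in that comparison. A difference of at least this size, in either direction, was seen in 1244 genes there and in 77 genes when the siTERT-labelled library was compared with the control.

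MTFP1, the most highly expressed of the targets, was at 46.4 FPKM in control cells, 33.0 FPKM after HKR3 transfection and 50.9 FPKM in the siTERT-labelled library. The HKR3 library was again the lowest, and the interval of the ratio between the siTERT-labelled library and the control, 0.987 to 1.22, included 1. The HKR3 library had 0.710 times the control level, with an interval from 0.630 to 0.798. The log2 difference of -0.48 lay at percentile 17.6 of all measured genes, so that 36.8% of them were at least as far from 0. In the library labelled siTERT against the control, 5.16% were.

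SNX15 was at 9.25 FPKM in control cells, 14.3 FPKM after HKR3 transfection and 9.91 FPKM in the siTERT-labelled library. It was the one measured target with its highest level in the HKR3 library. The ratio to the control was 1.55, with an interval from 1.29 to 1.87. With the shortest coding transcript, of 312 bases, fewer fragments are estimated and this interval ran from 0.967 to 2.56. The log2 difference of 0.58 lay at percentile 84.6, and 28.3% of all measured genes were at least as far from 0. The ratio of the siTERT-labelled library to the control was 1.07, with an interval from 0.876 to 1.31.

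VWA5B2 was at 0.0329 FPKM in control cells and 0.0899 FPKM after HKR3 transfection, and was listed at 0 in the library labelled siTERT. These values correspond to about 1, 4 and 0 fragments. The FPKM ratio of the HKR3 library to the control was 2.74, and the ratio from the estimated whole fragments was 3.70, with an interval from 0.366 to 182, so no difference was detectable at this depth. A count of 0 allows up to 3 fragments, which covers the control as well.

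**Figure D2:**
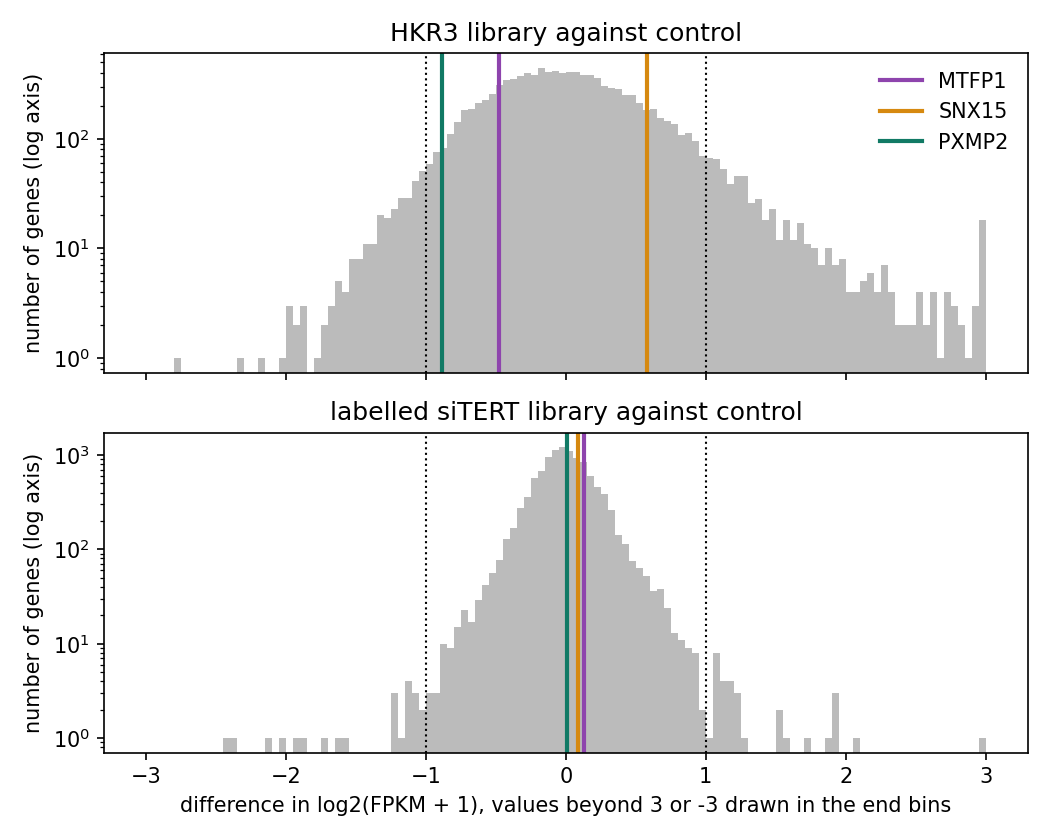
Number of genes (log axis) by log2(FPKM + 1) relative to control, after HKR3 transfection (top) and for the siTERT-labelled library (bottom), with coloured lines at MTFP1, SNX15 and PXMP2 and dotted lines at 2-fold. The lines lie between -0.88 and 0.58 inside the wide top distribution, and between 0.01 and 0.13 near the middle of the narrow bottom one.

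The siTERT-labelled library served as a second reference for the HKR3 library. Against it, PXMP2 was at a ratio of 0.512 (counting interval 0.399 to 0.658), MTFP1 at 0.648 (0.577 to 0.724) and SNX15 at 1.44 (1.21 to 1.73). Each target was on the same side of 1 as against the control. None of the targets was past 2-fold here either, while 5.49% of all measured genes were. ZBTB48 was 581-fold higher. This comparison uses the same HKR3 library as the one with the control.

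Summed over the whole table, FPKM came to 596536 (control), 535516 (HKR3) and 579410 (siTERT-labelled). Estimated depth was 10200000, 11100000 and 11200000 fragments in the same order. Scaling every library to the same sum moved the median of all genes from -0.02 to 0.12 in the HKR3 comparison. It also moved the split of 2-fold genes from 606 higher and 277 lower to 841 and 165, or from 68.6% to 83.6% higher. On that scale PXMP2 was at -0.74, MTFP1 at -0.33 and SNX15 at 0.72 in log2, and ZBTB48 at 9.05 where it was 8.91 as deposited. Hepatocyte markers were expressed, with all 12 of a list measured, including ALB (albumin) and AFP (alpha-fetoprotein). Their FPKM summed to 14420, 9972 and 13924 in the control, HKR3 and siTERT-labelled libraries. The libraries are bulk RNA of the Hep3B line and not of a mixed tissue. In them a lower level in all cells and in part of the cells cannot be told apart. None of 9 stromal and endothelial markers was measured, and they summed to at most 0.273 FPKM. Of 6 immune markers, PTPRC and CD3E were at 0 in all libraries, while LYZ (lysozyme), CD14 and CD68 were measured, and the sum was 431, 243 and 441 FPKM. LYZ made up most of that sum, at 392, 210.3 and 392 FPKM, while CD68 differed from the control by -0.15 in log2 after HKR3 transfection and by 0.42 in the siTERT-labelled library. The part of these shifts in the values of the targets was not tested.

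MTFP1, PXMP2 and SNX15 have annotated transcripts that share sequence with other genes. For MTFP1, 48.6% of 31-base words also occurred in AC004832.3, which was at most 0.000212 FPKM in any library. For PXMP2, 26.1% occurred in AC135586.2, at 0.265 FPKM in the HKR3 library and far below that in the others. For SNX15, 37.7% occurred in the read-through gene ARL2-SNX15, which was not analysed here, so the SNX15 level may hold reads of that transcript.

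Genes next to the targets in the RefSeq annotation were read in the same libraries. POLE, the catalytic subunit of DNA polymerase epsilon, lies beside PXMP2 and is transcribed from the opposite strand. It was at 13.2 FPKM in control cells, 12.6 FPKM after HKR3 transfection and 18.0 FPKM in the siTERT-labelled library. POLE therefore differed by -0.06 in log2 where PXMP2 differed by -0.88. PGAM5, a mitochondrial phosphatase on the other side of PXMP2, differed by 0.10.

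SNX15 lies between ARL2 and SAC3D1, and both were lower in the HKR3 library while SNX15 was higher. ARL2, a small GTPase, was at 26.1 and 19.5 FPKM in the control and HKR3 libraries. SAC3D1 was at 31.2 and 18.8 FPKM, a log2 difference of -0.70. SEC14L2, beside MTFP1, was weakly expressed at 1.15 and 1.44 FPKM, and SEC14L3 on the other side was listed at 0 in every library. Next to the nearly silent VWA5B2, ALG3, an enzyme of protein glycosylation that overlaps it on the opposite strand, was at 122 and 76.3 FPKM, and ABCF3 at 24.6 and 18.9 FPKM. None of these neighbours reached 2-fold after HKR3 transfection, where 8.05% of all measured genes did.

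**Figure D3:**
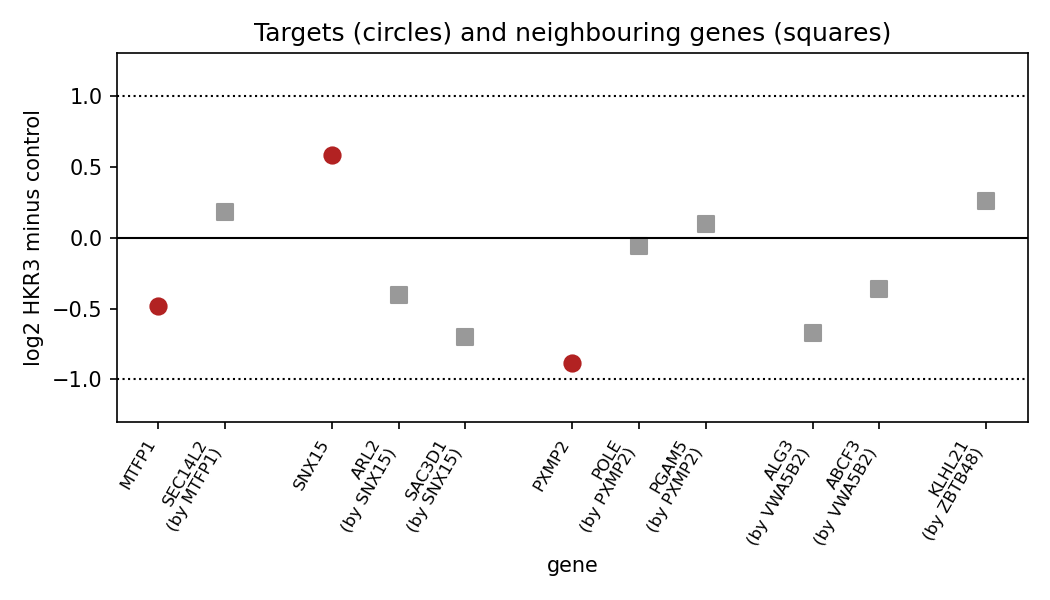
Difference between the HKR3 library and the control in log2(FPKM + 1) for MTFP1, SNX15 and PXMP2 (circles) and for measured neighbouring genes (squares), with dotted lines at 2-fold. SNX15 at 0.58 lies above its neighbours ARL2 and SAC3D1, and PXMP2 at -0.88 below POLE and PGAM5.

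CDKN2A, a further gene reported elsewhere as a ZBTB48 target, encodes the cell cycle inhibitors p16 and ARF, which the table does not separate. It was at 78.5 FPKM in control cells, 51.7 FPKM after HKR3 transfection and 65.5 FPKM in the siTERT-labelled library. The HKR3 and siTERT-labelled libraries were both below the control, at ratios of 0.659 (counting interval 0.599 to 0.726) and 0.835 (0.764 to 0.914). Against the siTERT-labelled library the HKR3 library was at a ratio of 0.789 (0.716 to 0.870), closer to 1 than against the control. The log2 differences of -0.59 and -0.26 lay at percentiles 12.5 and 10.8 of all measured genes in their comparisons. In the HKR3 comparison 27.5% of all measured genes were at least as far from 0. One of the CDKN2A RefSeq promoters held TCAGGG and TGAGGG once each, and the other held neither.

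Genes with TTAGGG in the upstream window were looked at as a group across the whole table. Of 8980 measured genes with a RefSeq promoter, 5.51% were higher and 2.31% lower by 2-fold or more after HKR3 transfection, and the median log2 difference was -0.02. Among the 939 with TTAGGG these shares were 6.50% and 2.13%, with a median of -0.03. Among the 61 with TTAGGG at 2 or more places, 3 were higher and 0 lower. Of the 1930 genes with TCAGGG, 6.27% were higher and 2.75% lower, and of the 235 with TCAGGG at 2 or more places 7.23% and 5.11%, or 17 and 12 genes. Of the 2181 with TGAGGG, 5.46% were higher and 1.93% lower, and of the 267 with TGAGGG at 2 or more places 5.99% and 3.37%, or 16 and 9 genes. No test of these shares was made.

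Genes with related functions were taken from 5 lists. Among 20 regulators of mitochondrial fission and fusion, the process MTFP1 acts in, 0 were past 2-fold in either comparison. Of all measured genes, 8.05% were past 2-fold after HKR3 transfection and 0.483% when the siTERT-labelled library was compared with the control. The median of the 20 regulators in the HKR3 library was -0.07 in log2, against -0.02 for all measured genes. It turned to 0.08 with libraries scaled to the same sum, where the median of all genes was 0.12. The member farthest from 0 was MTFR2, another fission regulator, at 9.25 and 5.02 FPKM in the control and HKR3 libraries. INF2, an actin-nucleating formin, was at 29.1 and 19.1 FPKM, and PHB1, a prohibitin of the inner membrane, at 228 and 166 FPKM. MFN1, a mitofusin, was at 12.8 and 17.4 FPKM. DNM1L, the dynamin-related fission GTPase, was at 26.1 and 24.0 FPKM, and its receptor MFF at 52.4 and 43.9 FPKM.

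Of 32 measured genes of peroxisome biogenesis and membrane, the setting of PXMP2, 4 were lower by 2-fold or more after HKR3 transfection and 0 were higher, and the median was -0.18. The lower genes made up 12.5% of the list, against 2.52% of all measured genes, of which 8.05% were past 2-fold in either direction. MPV17L, of the same protein family as PXMP2, was at 17.5, 7.18 and 14.5 FPKM in the control, HKR3 and siTERT-labelled libraries. PXMP4, a peroxisomal membrane protein, was at 14.2, 5.76 and 11.5 FPKM, and CAT, catalase, at 83.9, 40.5 and 75.9 FPKM. The HKR3 library was the lowest for each of these genes. Within the PXMP2 family, MPV17 was at -0.61 and MPV17L2 at -0.04 in log2.

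Not all peroxisomal genes were lower in the HKR3 library, where 11 of the 32 were above 0, against 48.6% of all measured genes. With libraries scaled to the same sum 13 of the 32 and 58.9% of all measured genes were. The median of the list was then -0.05, against 0.12 for all measured genes. ACBD5, a tether between peroxisomes and the endoplasmic reticulum, was at 34.5 FPKM in control cells and 67.8 FPKM after HKR3 transfection. With libraries scaled to the same sum ACBD5 was past 2-fold higher, CAT was no longer past 2-fold lower, and MPV17L and PXMP4 still were. In the library labelled siTERT 0 of the 32 were past 2-fold, against 0.483% of all measured genes. There 24 of the 32 were below 0, against 52.6% of all measured genes. With libraries scaled to the same sum 21 of the 32 and 44.2% of all measured genes were.

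Among 28 measured sorting nexins and retromer subunits other than SNX15, 1 was higher by 2-fold or more after HKR3 transfection and 0 were lower, and the median was 0.01. The share past 2-fold higher was 3.57%, against 5.52% of all measured genes. SNX16, the higher one, was weakly expressed, at 0.917 FPKM in control cells, 3.86 FPKM after HKR3 transfection and 2.04 FPKM in the siTERT-labelled library. SNX5, a partner of retromer, was at 115 and 190 FPKM in the control and HKR3 libraries, and SNX10 at 7.91 and 4.55 FPKM. The retromer subunits VPS26A and VPS26B differed in sign, at 0.57 and -0.77 in log2. SNX13, which had a log2 difference of 0.63 in the HKR3 library, was at 0.45 in the library labelled siTERT.

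Only 5 of 14 other proteins with a von Willebrand factor A domain were measured, and the closest relatives of VWA5B2 were not. VWA5A was at 0.322 and 0.532 FPKM in the control and HKR3 libraries, and VWA5B1 was listed at 0 in all. VWA1, a matrix protein, was at 58.4 FPKM in control cells, 17.5 FPKM after HKR3 transfection and 53.6 FPKM in the siTERT-labelled library. It was the only one past 2-fold, so 1 of 5 was lower after HKR3 transfection, against 2.52% of all measured genes. In either direction 8.05% of all measured genes were past 2-fold. ITIH2, a plasma protein made by hepatocytes, was at 171 and 97.6 FPKM in the control and HKR3 libraries.

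Among 9 other proteins that bind telomeric repeats or their variants, 0 were past 2-fold after HKR3 transfection, against 8.05% of all measured genes. Of the 9, 8 were above 0, and the median was 0.25, against -0.02 for all measured genes. Of all measured genes 48.6% were above 0 in that comparison. With libraries scaled to the same sum, 9 of 9 and 58.9% of all measured genes were. NR2F2, an orphan nuclear receptor, was at 15.3 FPKM in control cells, 29.9 FPKM after HKR3 transfection and 15.1 FPKM in the siTERT-labelled library, and passed 2-fold with libraries scaled to the same sum. ZBTB10, a BTB zinc finger protein like ZBTB48, was at 5.31 and 9.63 FPKM in the control and HKR3 libraries, and NR2C2 at 5.85 and 9.91 FPKM. The shelterin proteins TERF1 and TERF2 were at 0.07 and 0.25 in log2. POT1 was the member below 0, at -0.11, and it was above 0 with libraries scaled to the same sum. In the library labelled siTERT 7 of the 9 were below 0, with a median of -0.05, against 52.6% of all measured genes. With libraries scaled to the same sum 5 of the 9 and 44.2% of all measured genes were.

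**Figure D4:**
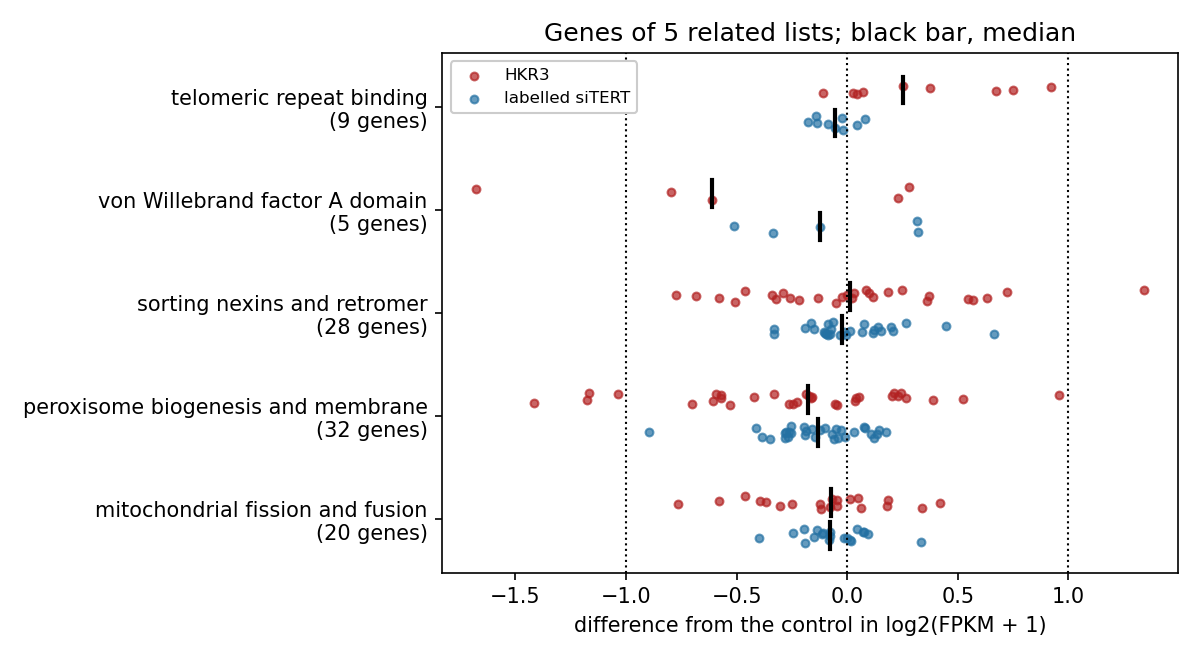
Values of log2(FPKM + 1) relative to control for measured genes of 5 lists, after HKR3 transfection and for the siTERT-labelled library. Each point is a gene, the black bar is the median, the dotted lines mark 0 and 2-fold, and the vertical scatter has no meaning. In the HKR3 library 4 of 32 peroxisomal genes lie below -1, against 2.52% of all measured genes. Of telomeric repeat binding genes 8 of 9 lie above 0, against 48.6% of all measured genes.

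The genes most like each of the 5 were found by the Euclidean distance between log2(FPKM + 1) values centred on their mean over the 3 libraries. For ZBTB48 the nearest, ANXA1, JUN and DUSP8, were 4.32, 4.36 and 4.51 away, and 0 genes lay within 0.1. For PXMP2 they were LYZ, TTYH3 and RASSF7, with 106 genes within 0.1. For MTFP1 they were PLEKHB2, PRRC1 and CTH, with 265 genes within 0.1, and for SNX15 they were RMC1, ZBTB8A and ZNF765, with 449. For VWA5B2, whose values were all near 0, they were USP22, TWNK and TMEM131L, with 939. With 3 libraries such a pattern holds few values, and many genes share it with MTFP1 or SNX15.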

How the data were processed

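Messenger RNA of Hep3B cells was sequenced in 3 libraries from a stranded TruSeq kit, per the labels' protocols. The authors deposited FPKM per gene. STAR 2.5.0, Cufflinks, Cuffdiff 2.2.1 and the hg19 build are named in the submitters' processing notes, while the sources used here give no roles, settings, filters or scaling between libraries. Of 19869 identifiers, 19310 were matched to a symbol, 10 entries sharing a symbol were summed, and 4 short noncoding RNAs were left out.

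Differences were computed in log2(FPKM + 1) over genes averaging 1 FPKM or more, with a size rule of 2-fold, since 1 library per group allows no test. Named genes were the 5, CDKN2A, TERT, their neighbours in RefSeq (GRCh38.p14), in each list those past 2-fold and up to 4 with the largest difference, and the 3 most similar in pattern. The rule was applied in each comparison, and POT1 and TERF1 meet it in the library labelled siTERT. DNM1L, MFF, ACBD5, VPS26A, TERF2, MPV17, MPV17L2, VWA5A and VWA5B1, and the hepatocyte and immune markers, fall outside this rule and were added once their values were known. A gene that the rule names among the peroxisomal genes is not reported here. The genes and lists were chosen with earlier results of these data known. Fragments were estimated from the FPKM of 1 fragment in 76 to 94 weakly expressed genes with 1 transcript of at least 1000 bases (GENCODE 29). Alternatives were pseudocounts, filters, scalings and the reference library. Python 3.11.15, pandas 2.3.3 and scipy 1.17.1 were used. The 2-fold rule was tried on simulated data with large changes in well expressed genes. That trial did not cover the counting intervals, the depth estimate or changes in weakly expressed genes.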

Additional observations from a re-analysis of the deposited data

How the results depend on the processing

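Under 7 other pseudocounts, filters and scalings, and with the siTERT-labelled library as the reference (an alternative chosen after seeing the data), 1 of the 4 measured genes among the 5, ZBTB48 (1 of 5 with no filter on low values), was past 2-fold in the HKR3 library, and under the 7 settings 0 were in the library labelled siTERT. Over these settings the log2 difference in the HKR3 library ran from -0.95 to -0.69 for PXMP2, from -0.61 to -0.32 for MTFP1, from 0.44 to 0.73 for SNX15 and from 8.17 to 9.15 for ZBTB48. For TERT it ran from -0.28 to 0.02, and was above 0 only when libraries were scaled to the same sum, with or without ZBTB48. The 883 genes past 2-fold in the HKR3 library became 1362 with a pseudocount of 0.1 FPKM and 331 with one of 5 FPKM, and the 53 in the library labelled siTERT became 160 and 13, and 22 with a mean of at least 5 FPKM. Of 94 measured genes in the 5 lists, 6 were past 2-fold in the HKR3 library, against 8.05% of all measured genes. The 6 became 1 with a pseudocount of 5 FPKM and 1 against the siTERT-labelled library. In the library labelled siTERT 0 of the 94 were past 2-fold, against 0.483% of all measured genes. This became 2 with a pseudocount of 0.1 FPKM. No paired analysis was possible because each group holds 1 library. Depth limits VWA5B2, at 4 fragments or fewer in each library.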
